A study of Mus musculus with 6 samples.

Results

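Cytochrome P450 enzymes are haem proteins that insert an oxygen atom into fatty acids, sterols, vitamins and foreign chemicals. Most sit in the endoplasmic reticulum, where P450 oxidoreductase feeds them electrons, and a smaller set works in mitochondria. In the eye they take part in the metabolism of arachidonic acid, retinoids and sterols, and inherited defects of single members cause disease of the anterior segment or of the cornea. The members were all protein-coding mouse genes with a P450 family symbol (Cyp, a family number, a subfamily letter and a gene number), other than the retinoic acid hydroxylases of family CYP26 and the sterol demethylase of family CYP51. This gave 95 of the 55421 genes in the files. By role, 59 belong to families CYP1 to CYP3, 20 to CYP4, 6 to sterol and bile acid metabolism, 6 to steroid hormone synthesis and 3 to vitamin D metabolism, and 1 stands alone (Cyp20a1).

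The RNA came from corneas of 20-week-old mice, either heterozygous for a Pax6 mutation (mutant, libraries M1 to M3) or wildtype (libraries W1 to W3). Pax6 encodes a transcription factor required for eye development and corneal epithelial identity, and in humans the loss of 1 copy causes aniridia. The labels name neither the allele nor the strain, and each group has 3 libraries that the series design calls biological replicates. The values are counts per gene, given as CPM, counts scaled to a common library total.

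The libraries held 16858005 to 21846406 mutant and 17033330 to 18940934 wildtype gene counts. Pax6 was at 356 to 453 CPM in mutant and 745 to 848 CPM in wildtype corneas. Of 12 listed markers of corneal epithelium, Pax6 among them, 11 matched the files and summed to 19317 to 25957 CPM in mutant and 38854 to 52799 CPM in wildtype corneas. Of the 10 tested, 6 fell and 1 rose, where 4.46% of all tested genes were lower and 5.59% higher. Their median log2 fold change was -1.09. M1 stood apart by sex: it had 1140 CPM of Xist and 0 counts of 4 Y-linked genes, against at most 0.68 CPM and at least 2316 counts in the other 5 libraries. W1 stood apart by low levels of some marker genes. The 7 vascular endothelial markers summed to 2.77 CPM in W1, against 36.0 and 42.1 CPM in W2 and W3, with Cdh5, Emcn and Tie1 at 0. The 6 pigment cell markers summed to 12.9 CPM in W1, against 317 and 195 CPM in W2 and W3, with Mlana at 0. In whole corneas, fewer cells of a type and less RNA per cell cannot be told apart.

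Of the 95 P450 genes, 34 had no count in any library and 24 had 1 to 9 counts over all 6 libraries. Expression in cornea was read as at least 1 CPM in every library of at least 1 genotype, which 27 genes met. Of these, 14 met it in both genotypes, 8 in mutant corneas and 5 in wildtype corneas. The last genes inside that limit were Cyp17a1 and Cyp2r1, whose lowest wildtype libraries were at 1.08 and 1.01 CPM. The first outside it were Cyp2e1 and Cyp4a10, whose lowest mutant libraries were at 0.794 and 0.166 CPM. At a limit of 5 CPM 12 genes remained. Of 2 subfamilies abundant in liver, Cyp2c had 12 of 15 genes at 0 counts in every library and none tested, and Cyp3a had 6 of 9 at 0 and 1, Cyp3a13, tested. Cyp1a1 and Cyp7a1 were also at 0. With 3 counts as the limit that a count of 0 allows, such genes were below 0.0529 CPM over the mutant and 0.0555 CPM over the wildtype libraries, which covers counting error only.

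By length-corrected level, averaged over all 6 libraries, the order of levels among the P450 genes was headed by Cyp4a12b, at 50.2 ± 2.64 RPKM (CPM per kilobase of exon) in mutant and 120 ± 12.1 RPKM in wildtype corneas (SD, n = 3 each). Cyp2f2 followed, at 97.0 ± 81.5 RPKM in mutant and 21.4 ± 15.9 RPKM in wildtype corneas, a spread over which it cannot be ranked against Cyp4a12b in mutant corneas. Cyp2a5, at 28.4 ± 17.7 and 3.78 ± 3.18 RPKM, and Cyp3a13, at 8.36 ± 2.18 and 17.9 ± 1.38 RPKM in mutant and wildtype corneas, came next, although Cyp2a5 was below Cyp3a13, Cyp39a1, Cyp2s1 and Cyp4a12a in wildtype corneas. Cyp39a1, at 7.05 ± 0.463 RPKM in mutant and 8.75 ± 2.48 RPKM in wildtype corneas, overlapped Cyp3a13 in mutant and Cyp2s1 in wildtype corneas within their SDs.

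**Figure D1:**
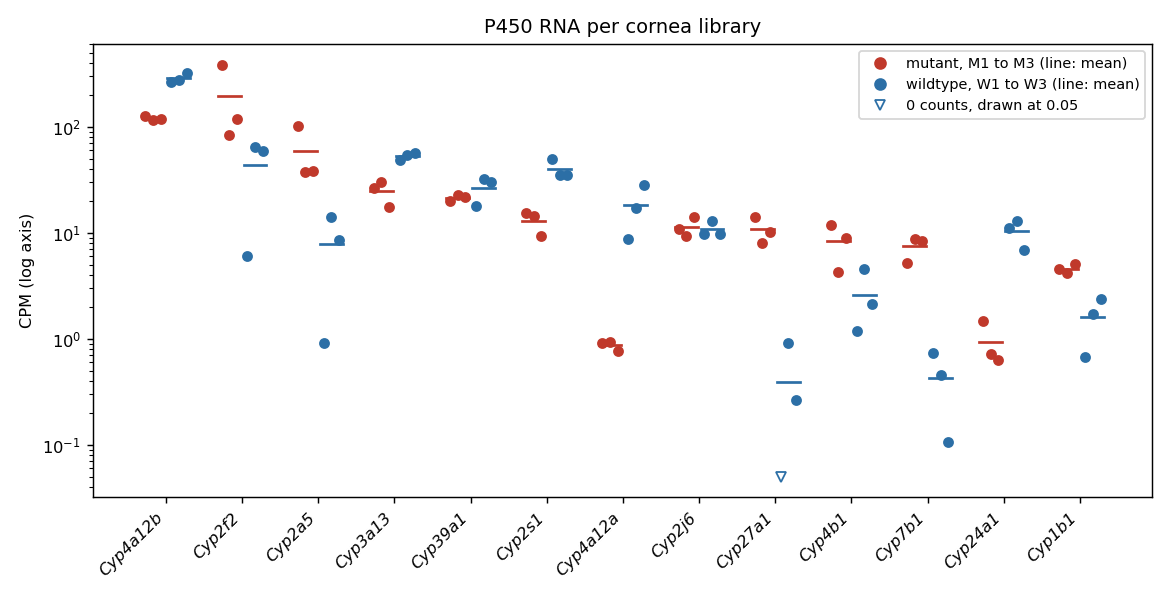
CPM of 13 P450 genes in each cornea library on a log axis, ordered by mean level per kilobase, with mutant libraries in red, wildtype libraries in blue and lines at the group means. Cyp4a12b, Cyp3a13, Cyp2s1, Cyp4a12a and Cyp24a1 lie lower and Cyp27a1 and Cyp7b1 higher in every mutant library. Cyp2f2, Cyp2a5 and Cyp1b1 also lie higher in every mutant library but did not pass the test. The open triangle is a library with 0 counts.

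The summed P450 RNA overlapped between the genotypes, at 526 ± 220 CPM in mutant and 558 ± 83.4 CPM in wildtype corneas (SD, n = 3 each). Without Cyp2f2 it did not overlap, at 329 ± 54.7 CPM in mutant and 515 ± 53.8 CPM in wildtype corneas. Cyp4a12b alone made up 120 ± 6.33 and 287 ± 29.0 CPM of these, most of the difference. The make-up of the summed P450 RNA also differed. With Cyp2f2 it was 779, 378 and 420 CPM in M1, M2 and M3, against 465, 584 and 625 CPM in W1, W2 and W3. Cyp4a12b took 16.3%, 30.3% and 28.2% of it in M1, M2 and M3, against 56.8%, 47.4% and 51.1% in W1, W2 and W3. Cyp2f2 took 49.6%, 22.2% and 28.4% in M1, M2 and M3, against 1.32%, 11.0% and 9.49% in W1, W2 and W3. The Cyp4a12b share was thus lower in every mutant library and the Cyp2f2 share higher, and M1 and W1 lay at the ends of both.

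**Figure D2:**
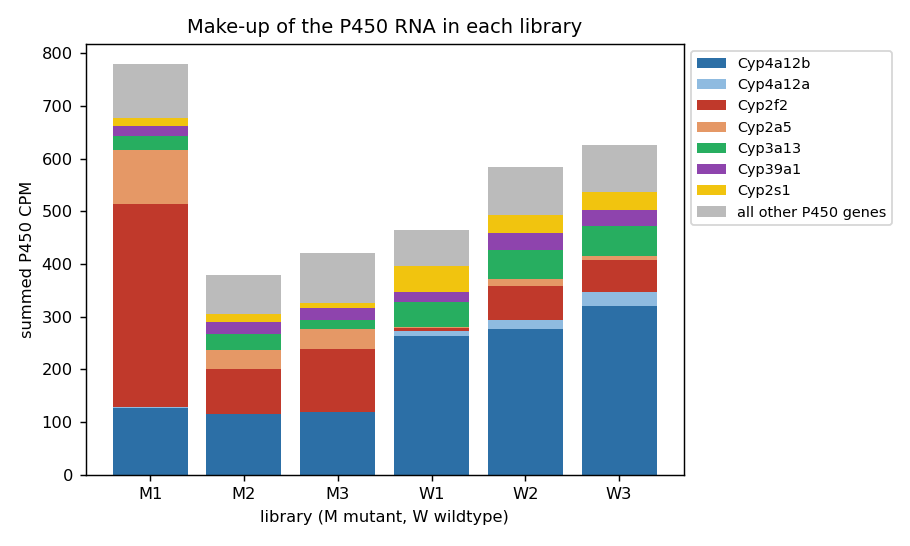
Summed CPM of all 95 P450 genes in each library, mutant libraries at the left, split into 7 abundant genes and the rest. The dark blue part, Cyp4a12b, is at 115 to 127 CPM in mutant and 264 to 319 CPM in wildtype libraries, and the tall red part of M1 is Cyp2f2 at 386 CPM.

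The comparison of genotypes asked which P450 transcripts differ when 1 copy of Pax6 is mutated. A low-count filter left 28 of the 95 P450 genes to test, and 7 of these passed the threshold of 0.05. The p-values are from the quasi-likelihood test in edgeR, adjusted by the Benjamini-Hochberg method over all 15209 genes that entered it. The 7 are 25% of the P450 genes tested, where 10.1% of all tested genes passed. Cyp27a1 and Cyp7b1 rose (background 5.59% of genes higher), and Cyp4a12a, Cyp4a12b, Cyp24a1, Cyp2s1 and Cyp3a13 fell (background 4.46% lower). In 20 of the 28 no mutant library lay within the wildtype range, or the reverse, with 10 in each direction; this held for 31.9% of all tested genes. Genes low in 1 genotype enter the test only through the other, so these shares do not describe all 95 genes. The median log2 fold change, mutant over wildtype, was -0.21 over the 28 and 0.01 over all genes tested. DESeq2, run on the same genes, called 14 of the 28, which included these 7, where it called 15.5% of all tested genes.

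**Figure D3:**
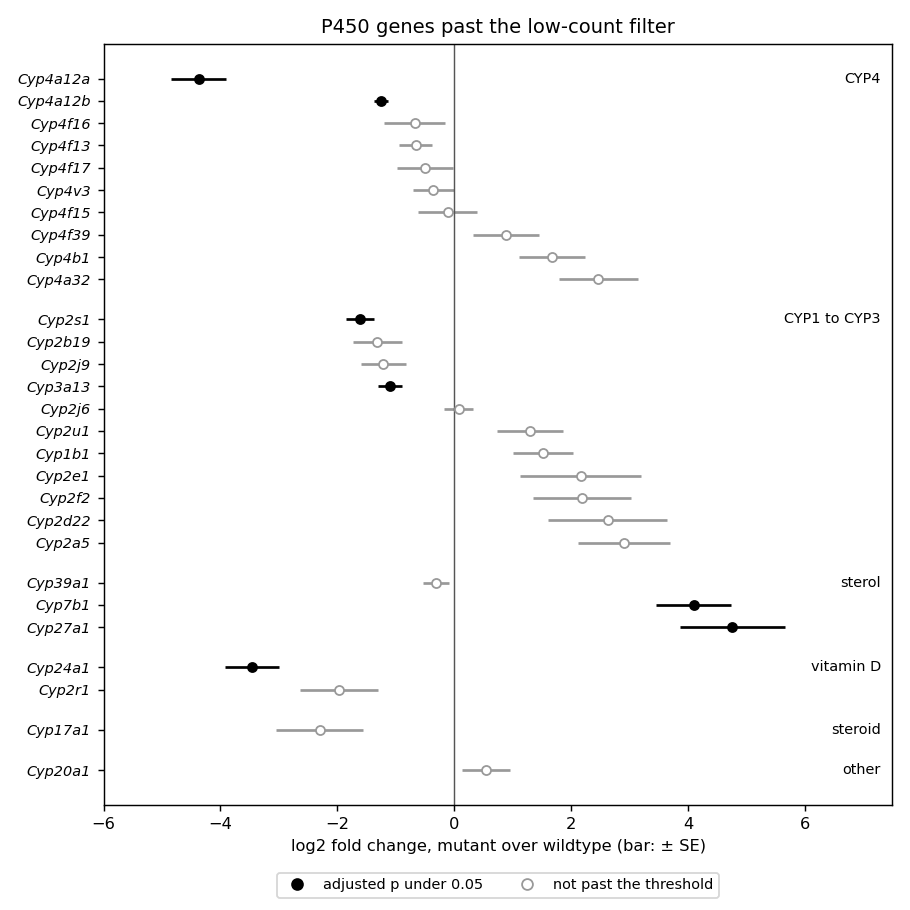
Log2 fold change, mutant over wildtype, of the 28 tested P450 genes by role, with bars of ± SE and filled points for adjusted p under 0.05. The filled points are Cyp4a12a, Cyp4a12b, Cyp2s1, Cyp3a13 and Cyp24a1 left of 0 and Cyp7b1 and Cyp27a1 right of it.

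The largest decrease among the P450 genes was in the fatty acid hydroxylases of subfamily CYP4A. Cyp4a12a (ENSMUSG00000066071) and Cyp4a12b (ENSMUSG00000078597) encode enzymes that hydroxylate the terminal carbon of fatty acids and turn arachidonic acid into a vasoactive hydroxy acid. They lie side by side on the plus strand of chromosome 4 in GRCm38, Cyp4a12a from 115299046 to 115332815 and Cyp4a12b from 115411624 to 115439034. Their coding sequences of 1524 bases each differ at 23 positions (98.5% identity), and 41.3% of all windows of 100 bases, the read length, are identical in both. The stretch with the most differences within 120 coding bases, bases 644 to 763 counted from the start codon, is shown because reads can be told apart by such positions only; capitals mark the 8 differing bases, read from the GENCODE transcripts.
Cyp4a12a: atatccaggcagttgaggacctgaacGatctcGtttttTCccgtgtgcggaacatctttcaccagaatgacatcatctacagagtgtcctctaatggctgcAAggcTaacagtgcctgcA
Cyp4a12b: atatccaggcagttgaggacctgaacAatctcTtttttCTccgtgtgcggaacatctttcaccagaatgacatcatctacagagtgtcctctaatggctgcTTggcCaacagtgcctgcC

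Cyp4a12b was at 127, 115 and 119 CPM in M1, M2 and M3, against 264, 277 and 319 CPM in W1, W2 and W3. Each mutant library was below each wildtype library, and the spread within a genotype was small beside the difference. It averaged 120 ± 6.33 CPM in mutant and 287 ± 29.0 CPM in wildtype corneas (SD, n = 3 each), a log2 fold change of -1.25 ± 0.12 (SE; adjusted p = 0.0010, edgeR). Cyp4a12a was at 0.916, 0.942 and 0.764 CPM in M1, M2 and M3, against 8.78, 17.3 and 28.4 CPM in W1, W2 and W3. The mutant libraries were alike at about 1 CPM, while the wildtype libraries varied among themselves. Its log2 fold change was -4.37 ± 0.47 (SE; adjusted p = 0.0015, edgeR), a 20.7-fold lower level against 2.38-fold for Cyp4a12b.

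All 3 mutant libraries had a lower share of Cyp4a12a in the pair than the wildtype ones. Cyp4a12a made up 0.715%, 0.813% and 0.639% of the counts of the pair in M1, M2 and M3, with exact binomial 95% intervals, which cover counting error only, within 0.373% to 1.30%. In W1, W2 and W3 it made up 3.22%, 5.88% and 8.17%, with intervals within 2.74% to 8.86%. The log2 ratio of Cyp4a12a to Cyp4a12b was -7.11 ± 0.18 in mutant and -4.13 ± 0.72 in wildtype corneas (SD, n = 3 each; two-sided exact permutation p = 0.10, the smallest that 3 against 3 libraries allow). The counts are whole numbers, so reads were not divided between the copies. Reads without a unique alignment made up 3.50% of all that was tallied over the libraries. Reads that fit both copies equally could have been set aside or assigned to a copy by the authors' counting, so the counts of both copies are uncertain. In mouse liver and kidney the Cyp4a12 genes are known for higher expression in males. The only female library, M1, had 127 CPM of Cyp4a12b, beside 115 and 119 CPM in the male mutant libraries, and without M1 the log2 fold change of Cyp4a12a was -4.40; with 1 female library, the part of sex was not tested.

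Other CYP4 genes did not pass the test. Cyp4a32, a further member of the same gene cluster, was at 5.38, 2.60 and 2.16 CPM in M1, M2 and M3, against 0.227, 0.680 and 0.907 CPM in W1, W2 and W3 (log2 fold change 2.46 ± 0.68, SE; adjusted p = 0.058, edgeR). All 3 mutant libraries lay above the wildtype ones, at low counts, and 18.2% of its windows of 100 bases also occur in other genes. Cyp4b1, which in the rabbit corneal epithelium makes inflammatory eicosanoids, was at 11.9, 4.26 and 8.90 CPM in M1, M2 and M3, against 1.19, 4.53 and 2.14 CPM in W1, W2 and W3. M2 lay within the wildtype range (log2 fold change 1.67 ± 0.57, SE; adjusted p = 0.11, edgeR). Without W2 its log2 fold change was 2.32, and without M1 and W1 it was 0.96. DESeq2 called both Cyp4a32 and Cyp4b1.

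The CYP4F genes, whose products hydroxylate leukotrienes and other long lipids, had 5 of 9 members tested and none called. The most abundant of them, Cyp4f13, averaged 7.74 ± 2.39 CPM in mutant and 12.2 ± 1.54 CPM in wildtype corneas (SD, n = 3 each; adjusted p = 0.20, edgeR). Their log2 fold changes ran between -0.68 for Cyp4f16 and 0.88 for Cyp4f39, the mouse counterpart of the human acylceramide enzyme CYP4F22. Cyp4v3 is the counterpart of human CYP4V2, whose loss causes a crystalline dystrophy of cornea and retina. It was at 4.58, 3.43 and 3.37 CPM in M1, M2 and M3, against 3.74, 5.16 and 5.71 CPM in W1, W2 and W3. The groups overlapped (log2 fold change -0.36 ± 0.35, SE; adjusted p = 0.60, edgeR), and exons of Gm45753 on the same strand share 313 of its bases.

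Among families CYP1 to CYP3, Cyp2s1 and Cyp3a13 fell. Cyp2s1 (ENSMUSG00000040703; chromosome 7, 25802475 to 25816913, minus strand) is a P450 of surface epithelia that the aryl hydrocarbon receptor can induce. It was at 15.3, 14.6 and 9.30 CPM in M1, M2 and M3, against 49.4, 35.2 and 34.9 CPM in W1, W2 and W3. The groups were well apart (log2 fold change -1.61 ± 0.24, SE; adjusted p = 0.0055, edgeR). Cyp3a13 (ENSMUSG00000029727; chromosome 5, 137892932 to 137921619, minus strand), the only Cyp3a gene above the expression limit, belongs to the subfamily that oxidises many drugs and steroids. It was at 26.5, 30.1 and 17.6 CPM in M1, M2 and M3, against 48.6, 53.7 and 56.6 CPM in W1, W2 and W3. It was 2.15-fold lower in mutant corneas (log2 fold change -1.10 ± 0.20, SE; adjusted p = 0.013, edgeR). The opposite-strand gene Gm26707 shares 260 exon bases with Cyp2s1 and was at 0.567 CPM or less in every library. The corneal epithelial markers given above, with 6 of 10 lower, moved with Cyp4a12a, Cyp4a12b, Cyp2s1, Cyp3a13 and Cyp24a1; none was at 0 in every library, and the part of epithelial cells in these P450 levels was not tested.

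Cyp2f2 and Cyp2a5 were the most variable abundant P450 genes and did not pass the test. Cyp2f2 is the naphthalene-activating P450 of airway club cells. It was at 386, 84.2 and 119 CPM in M1, M2 and M3, against 6.12, 64.3 and 59.4 CPM in W1, W2 and W3. No library of one genotype lay within the range of the other, yet M1 was far above M2 and M3 and W1 far below W2 and W3 (log2 fold change 2.18 ± 0.84, SE; adjusted p = 0.16, edgeR). Cyp2a5, the mouse coumarin hydroxylase related to human CYP2A6, was at 101, 37.3 and 38.0 CPM in M1, M2 and M3, against 0.906, 14.1 and 8.54 CPM in W1, W2 and W3. Its extremes were again M1 and W1 (log2 fold change 2.91 ± 0.79, SE; adjusted p = 0.056, edgeR). M1 is also the only female library, and the part of sex in the Cyp2f2 and Cyp2a5 levels was not tested. With M1 and W1 both left out, the log2 fold changes were 0.70 ± 0.17 for Cyp2f2 (adjusted p = 0.043) and 1.72 ± 0.25 for Cyp2a5 (adjusted p = 0.0062, edgeR, SE), smaller than with all libraries but past the threshold. Over all alternatives the adjusted p was 8.3e-36 to 0.47 for Cyp2f2 and 3.7e-42 to 0.19 for Cyp2a5. Both lowest values came from edgeR with no low-count filter, and both highest from edgeR without M1. With no filter the SE was 0.17 for Cyp2f2 and 0.21 for Cyp2a5 on the same 6 libraries. That is far below the 0.84 and 0.79 above, so these lowest values do not reflect the spread between libraries.

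Some markers of other cells had the same extremes. The 7 vascular endothelial markers, none of them called, summed to 53.3 to 121 CPM in mutant and 2.77 to 42.1 CPM in wildtype corneas, highest in M1 and lowest in W1. The 6 pigment cell markers, none called, summed to 247 to 427 CPM in mutant and 12.9 to 317 CPM in wildtype corneas, with the same extremes. The 11 keratocyte and stromal markers summed to 910 to 5089 CPM in mutant corneas, also highest in M1. In W1, W2 and W3 they summed to 462, 560 and 484 CPM, so W1 was close to W3. Col1a1, Kera and Angptl7 were highest in W1 among the wildtype libraries. Col1a2 and Lum lay between W2 and W3 there, and the other markers of this list were lowest in W1. Of 9 conjunctival and goblet markers 7 were tested and 6 rose, where 5.59% of all tested genes were higher. They summed to 16221 to 17519 CPM in mutant and 5112 to 8577 CPM in wildtype corneas, with W1 the highest wildtype library. Muc4, not called, made up most of the wildtype sums, at 8219, 4597 and 4648 CPM in W1, W2 and W3. Krt4, Krt7, Krt13 and Krt19 were lowest in W1 among the wildtype libraries, whereas Muc5ac and Spdef were highest there. Krt4, Krt7 and Krt13 were highest in M1, and Muc5ac was lowest in M1 among the mutant libraries. No listed marker of these 4 groups was at 0 in every library, and their part in the Cyp2f2 and Cyp2a5 levels was not tested. Of 6 hepatocyte markers, Alb, Fgb, Serpina1a and Tat were at 0 in every library and Apoa1 was at 0.267 CPM in W3 alone. The sixth, Ttr, was at 2.63, 3.66 and 2.70 CPM in M1, M2 and M3, against 0, 21.0 and 9.45 CPM in W1, W2 and W3.

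**Figure D4:**
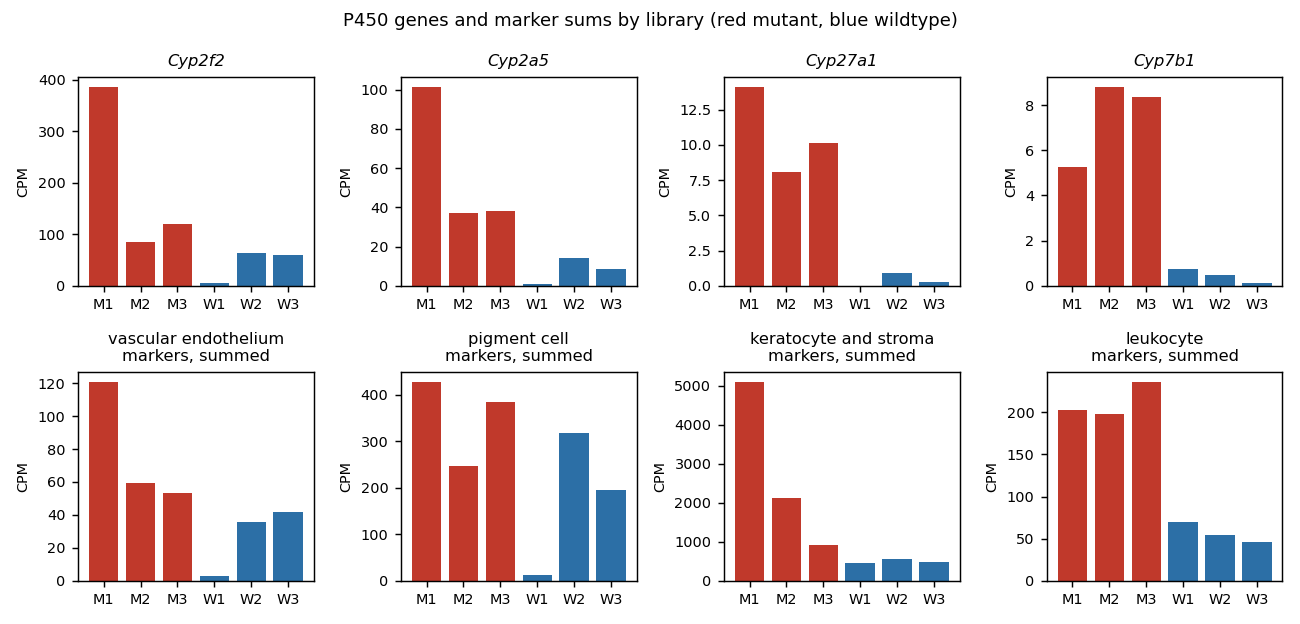
CPM per library of Cyp2f2, Cyp2a5, Cyp27a1 and Cyp7b1 (top) and of summed marker genes of 4 cell types (bottom), mutant libraries in red at the left and wildtype in blue; each panel has its own axis from 0. M1 is highest and W1 lowest for Cyp2f2, Cyp2a5 and the vascular and pigment cell sums, whereas leukocyte markers are at 197 to 236 CPM in mutant and 46.0 to 69.8 CPM in wildtype libraries.

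The remaining tested genes of families CYP1 to CYP3 were not called. Cyp1b1 oxidises retinoids and steroids, and its loss in humans causes congenital glaucoma. It was at 4.58, 4.15 and 5.03 CPM in M1, M2 and M3, against 0.680, 1.70 and 2.40 CPM in W1, W2 and W3. The groups did not overlap (log2 fold change 1.52 ± 0.52, SE; adjusted p = 0.11, edgeR, and 0.049 to 0.31 over all alternatives, the lowest by DESeq2). Cyp2j6, of the subfamily that forms epoxides of arachidonic acid, was at 10.9, 9.30 and 14.2 CPM in M1, M2 and M3, against 9.80, 13.0 and 9.77 CPM in W1, W2 and W3. The groups overlapped throughout (log2 fold change 0.08 ± 0.25, SE; adjusted p = 0.89, edgeR). Its neighbour Cyp2j9 and the keratinocyte epoxygenase Cyp2b19 averaged 2.92 ± 0.823 and 2.99 ± 0.811 CPM in mutant corneas, against 6.79 ± 1.96 and 7.46 ± 3.33 CPM in wildtype corneas (SD, n = 3 each). Cyp2u1, Cyp2d22 and Cyp2e1 averaged 3.92 ± 1.90, 2.07 ± 0.704 and 0.923 ± 0.121 CPM in mutant corneas, against 1.59 ± 0.767, 0.328 ± 0.300 and 0.200 ± 0.188 CPM in wildtype corneas. Adjusted p-values by edgeR of these 5 genes were 0.088 to 0.25. DESeq2, and edgeR without W1, called Cyp2b19 and Cyp2j9 lower.

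In sterol metabolism, 2 enzymes that act in sequence rose together. Cyp27a1 (ENSMUSG00000026170; chromosome 1, 74713574 to 74737892, plus strand) is the mitochondrial enzyme that hydroxylates the cholesterol side chain, and macrophages are known to express it. It was at 14.1, 8.09 and 10.1 CPM in M1, M2 and M3, against 0, 0.907 and 0.267 CPM in W1, W2 and W3. Every mutant library was far above the wildtype ones, which were near the detection limit (log2 fold change 4.76 ± 0.90, SE; adjusted p = 0.014, edgeR). The call was lost without M1, M2 or M3, at adjusted p of 0.067, 0.0501 and 0.063 by edgeR (1.4e-16 to 0.067 over all alternatives), while the log2 fold change stayed at 4.52 to 4.93; without W2, which held most of the wildtype counts, it was 6.24. Cyp7b1 (ENSMUSG00000039519; chromosome 3, 18071950 to 18243338, minus strand) hydroxylates oxysterols, among them the product of Cyp27a1. It was at 5.25, 8.81 and 8.36 CPM in M1, M2 and M3, against 0.736, 0.453 and 0.107 CPM in W1, W2 and W3. Its log2 fold change was 4.10 ± 0.64 (SE; adjusted p = 0.0068, edgeR), and 4.72 without W1.

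Cyp39a1, which hydroxylates an oxysterol formed in the brain, did not follow them. Among the 6 members of sterol and bile acid metabolism, which leave out Cyp51, it was the most abundant. It was at 20.0, 22.8 and 21.8 CPM in M1, M2 and M3, against 18.1, 32.1 and 30.0 CPM in W1, W2 and W3. The mutant libraries lay inside the wildtype range (log2 fold change -0.31 ± 0.22, SE; adjusted p = 0.47, edgeR). Leukocyte markers, like Cyp27a1 and Cyp7b1, were higher in mutant corneas by sum, at 197 to 236 CPM against 46.0 to 69.8 CPM in wildtype corneas. Of 10 such markers 9 were tested and 6 rose, where 5.59% of all tested genes were higher, and none was at 0 in every library. Cd68 (means of 13.8 CPM in mutant and 12.6 CPM in wildtype corneas), Adgre1 and Cd3e were not called. Among the wildtype libraries W1 had the highest leukocyte sum and Cyp7b1 level but no count of Cyp27a1. Among the mutant libraries the leukocyte sum was highest in M3, Cyp27a1 in M1 and Cyp7b1 in M2. Of 11 keratocyte and stromal markers 10 were tested, and 7 rose and 1 fell, where 5.59% of all tested genes were higher and 4.46% lower. Their sums were 910 to 5089 CPM in mutant and 462 to 560 CPM in wildtype corneas. M1, with the highest stromal sum, had the highest Cyp27a1 and the lowest mutant Cyp7b1 level. The part of these cells in the sterol P450 levels was not tested.

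Of the 3 genes grouped here under vitamin D metabolism, the one whose enzyme degrades the hormone fell. Cyp27a1 was grouped with sterol metabolism above. Cyp24a1 (ENSMUSG00000038567; chromosome 2, 170482708 to 170497145, minus strand) inactivates vitamin D metabolites and is a classical target of the vitamin D receptor. It was at 1.47, 0.720 and 0.629 CPM in M1, M2 and M3, against 11.2, 12.9 and 6.94 CPM in W1, W2 and W3. Each wildtype library was several times above each mutant library (log2 fold change -3.47 ± 0.46, SE; adjusted p = 0.0034, edgeR), an 11.1-fold lower level. Cyp2r1, the liver-type enzyme of the activating path, was at 0.428, 0.277 and 0.539 CPM in M1, M2 and M3, against 2.32, 1.64 and 1.01 CPM in W1, W2 and W3. The groups did not overlap, at 5 to 41 counts per library (log2 fold change -1.98 ± 0.67, SE; adjusted p = 0.11, edgeR). Cyp27b1, which completes activation, had 13 counts in all and was not tested. The receptor gene Vdr averaged 18.7 ± 4.13 CPM in mutant and 15.4 ± 8.95 CPM in wildtype corneas (SD, n = 3 each; adjusted p = 0.73, edgeR). Exons of Pfdn4 on the opposite strand share 83 bases with Cyp24a1, and Pfdn4 was at 5.99 to 9.19 CPM in mutant and 5.21 to 9.86 CPM in wildtype corneas.

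Steroid hormone synthesis was almost unrepresented. Cyp19a1, Cyp21a1 and Cyp11b2 had no count, and Cyp11a1 and Cyp11b1 had at most 5 counts in a library. Cyp17a1, the enzyme on the way to androgens, was at 0.367, 0.831 and 0.225 CPM in M1, M2 and M3, against 2.89, 1.08 and 3.10 CPM in W1, W2 and W3. The groups did not overlap, at low counts (log2 fold change -2.30 ± 0.74, SE; adjusted p = 0.095, edgeR), and DESeq2 called it lower. Cyp20a1, an orphan P450, averaged 4.02 ± 0.124 CPM in mutant and 2.75 ± 0.911 CPM in wildtype corneas (SD, n = 3 each; adjusted p = 0.48, edgeR).

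Within the P450 gene clusters the fold changes had both signs. The Cyp2 cluster of chromosome 7 holds 13 members over 1356.2 kb, of which 4 were tested. Cyp2s1 at one end fell, Cyp2b19 had a log2 fold change of -1.32 ± 0.42, and Cyp2a5 and Cyp2f2 had 2.91 ± 0.79 and 2.18 ± 0.84 (SE). The Cyp4 cluster of chromosome 4 holds 10 members over 541.4 kb. In it, Cyp4a12a and Cyp4a12b fell, while Cyp4a32 and Cyp4b1 at the far end had 2.46 ± 0.68 and 1.67 ± 0.57 on the log2 scale (SE), and 6 members had too few counts to test.

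**Figure D5:**
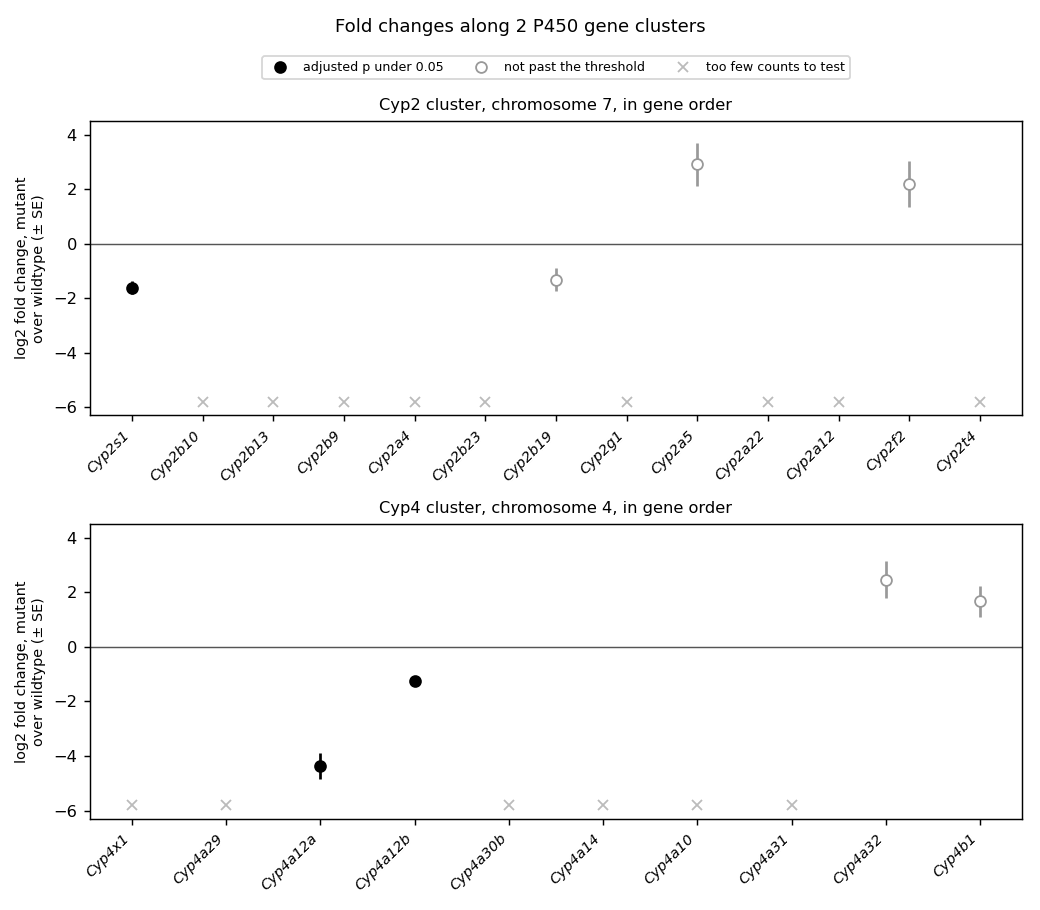
Log2 fold change, mutant over wildtype, with bars of ± SE, of P450 genes in their order along the cluster of chromosome 7 (top) and of chromosome 4 (bottom). Filled points passed adjusted p 0.05, open points did not, and crosses at the bottom edge are genes with too few counts to test; each cluster has tested genes on both sides of 0.

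The electron partners of the P450 enzymes changed in 1 case. Of 13 listed genes 10 were tested, with a median log2 fold change of -0.04, and Por, the oxidoreductase that serves all microsomal P450 enzymes, rose (1 of 10, where 5.59% of all genes were higher). Por was at 406, 327 and 429 CPM in M1, M2 and M3, against 278, 205 and 207 CPM in W1, W2 and W3. The groups did not overlap (log2 fold change 0.75 ± 0.17, SE; adjusted p = 0.028, edgeR). Without M1, M3, W2 or W3 the call was lost, at adjusted p of 0.097, 0.13, 0.097 and 0.093 by edgeR (1.6e-04 to 0.13 over all alternatives). The mitochondrial partners Fdx1 and Fdxr had log2 fold changes of -0.03 ± 0.41 and 0.35 ± 0.42 (SE).

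Of 29 listed regulators of P450 genes 18 were tested, with a median log2 fold change of 0.11, and Ahr and Cebpa rose (2 of 18, where 5.59% of all genes were higher). Ahr, the aryl hydrocarbon receptor, was at 47.7, 39.5 and 44.6 CPM in M1, M2 and M3, against 26.1, 22.8 and 29.6 CPM in W1, W2 and W3. Its log2 fold change was 0.75 ± 0.15 (SE; adjusted p = 0.019, edgeR), and leaving out M1, M3, W2, or M1 with W1 ended the call (adjusted p of 0.074, 0.092, 0.064 and 0.052, edgeR; 0.0015 to 0.092 over all alternatives). Cebpa, a transcription factor of epithelial and liver differentiation, averaged 55.2 ± 1.53 CPM in mutant and 24.0 ± 3.70 CPM in wildtype corneas (SD, n = 3 each; adjusted p = 0.0026, edgeR). Ppara, the fatty acid receptor that induces Cyp4a genes in liver, had a log2 fold change of -0.47 ± 0.39 (SE; adjusted p = 0.53, edgeR). Nr1i2 and Nr1i3, the drug-sensing receptors of liver, had 0 counts in every library. Opposite-strand genes share 127 exon bases with Ahr and 51 with Cebpa; whether the counting used strand was not stated, so reads of such pairs cannot be told apart.

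The regions before the start sites of Cyp1a1 and Cyp1b1 are shown because both are classical targets of the aryl hydrocarbon receptor. The RNA of that receptor was higher in mutant corneas, and Cyp1a1 had 0 counts in all 6 libraries. Cyp1b1 was 2.87-fold higher in mutant corneas with the groups apart, but not called (adjusted p = 0.11 by edgeR, 0.049 by DESeq2). Cyp2s1, which that receptor can induce, fell. The part of the receptor in these levels was not tested. The Cyp1a1 and Cyp1b1 regions each hold 1 match, in capitals, to the core element GCGTG of that receptor on either strand. The match lies 54 bases before the start of Cyp1a1 and 76 bases before that of Cyp1b1. The sequences are the 250 bases upstream of the start in RefSeq, build GRCm38.p6, at chr9:57697363-57697612 on the plus strand and chr17:79715062-79715311 on the minus strand.
Cyp1a1: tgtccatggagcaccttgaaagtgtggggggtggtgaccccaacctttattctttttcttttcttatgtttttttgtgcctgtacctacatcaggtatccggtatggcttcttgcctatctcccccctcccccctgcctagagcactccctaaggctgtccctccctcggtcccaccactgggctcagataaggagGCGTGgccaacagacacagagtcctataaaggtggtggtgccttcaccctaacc
Cyp1b1: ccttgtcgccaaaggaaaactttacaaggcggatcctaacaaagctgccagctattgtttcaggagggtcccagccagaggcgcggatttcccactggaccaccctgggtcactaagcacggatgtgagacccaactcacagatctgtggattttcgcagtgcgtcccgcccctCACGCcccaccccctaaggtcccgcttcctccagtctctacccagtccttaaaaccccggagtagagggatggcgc

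The table of upstream regions held 72 of the 95 P450 genes and 19 of the 28 tested ones. A match to GCGTG was found in 6 of these 19 and in 28.2% of all 32851 upstream regions of that length, so the core is common and its presence is a description only.

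Of 37 listed genes for later steps of lipid, drug and steroid metabolism 22 were tested, with a median log2 fold change of 0.54, and 3 were called (2 higher and 1 lower, where 5.59% of all genes were higher and 4.46% lower). Fmo2, a flavin monooxygenase that oxidises drugs without a P450, rose to 49.3 ± 20.0 CPM in mutant corneas, against 11.2 ± 5.01 CPM in wildtype corneas (SD, n = 3 each; adjusted p = 0.014, edgeR). Its log2 fold change was 2.14 ± 0.40, and 1.43 without M1 and W1. Ugt1a7c, a glucuronosyltransferase, also rose (adjusted p = 0.047, edgeR), but it shares exons with other Ugt1a genes, its counts are uncertain, and the call was lost without any 1 library other than W1 (adjusted p of 0.089 to 0.22, edgeR), without M1 and W1 together (0.068, edgeR) and with limma-voom on all 6 (0.088); it was 0.0090 to 0.22 over all alternatives. Srd5a1, the steroid reductase that makes dihydrotestosterone, fell to 4.78 ± 0.590 CPM in mutant corneas, against 14.7 ± 3.06 CPM in wildtype corneas (SD, n = 3 each; adjusted p = 0.0072, edgeR). Exons of Gm17108 on the same strand share 476 bases with Srd5a1. The epoxide hydrolases Ephx1 and Ephx2, which open the epoxides that P450 enzymes form, had log2 fold changes of -0.45 ± 0.12 and 0.04 ± 0.40 (SE; adjusted p of 0.054 and 0.97, edgeR).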

How the data were processed

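A strand-preserving kit for low RNA amounts gave paired reads of 100 bases, per the labels' protocols. The submitters' processing notes list GRCm38 and the tools HTSeq, HISAT2, SAMtools, Trim Galore and edgeR. Their versions and the strand setting of the counting were not given in the sources used. Raw counts per Ensembl gene were deposited by the authors, from 1 file for each library. The 5 summary lines of each file (53.3% of all lines' total) were left out. GENCODE M21 gave symbols, exons and lengths for 55240 of 55421 IDs.

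Low counts were removed by filterByExpr (at least 10 in the smaller group's libraries and 15 in total), and libraries were scaled by TMM and compared with edgeR 4.0.16 (quasi-likelihood test, genotype as the only term) in R 4.3.3, with Benjamini-Hochberg adjustment over all genes; limma 3.58.1 and DESeq2 1.42.0 were alternatives. RPKM divides CPM by kilobases of merged exons. Scripts were tested on simulated data. Replicates were numbered in accession order, and p-values measure the spread between these libraries, which may be partly technical. Genes named are every P450 gene past the threshold, the 10 most abundant per kilobase and Cyp1b1, and every called gene of the 3 further lists; the other tested P450 genes were named after their values were seen. Members and lists were chosen with earlier results of these data known.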

Additional observations from a re-analysis of the deposited data

How the results depend on the processing

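The 7 P450 calls kept their direction under all 14 alternatives, and 6 of them kept the threshold as well; Cyp27a1 did not. Called P450 genes numbered 6 to 10 of 28 with 1 library left out (5 to 7 lower, 1 to 3 higher). They were 9 of 28 without M1 and W1 together, 14 of 28 with DESeq2 and 12 of 61 with no low-count filter. Over all genes, calls ran from 612 of 15909 without M3 to 2074 of 16046 without W1. They were 1780 of 15563 without M1 and W1, 2358 of 15209 with DESeq2 and 2725 of 28717 with no filter. With no filter, Cyp2a5, Cyp2f2, Cyp4a32, Cyp4b1 and Cyp2b19 were added. Cyp2a5 also passed with limma-voom, DESeq2, a filter at 1 CPM and without W1. The log2 fold change of Cyp2j6 was -0.11 to 0.23 with 1 library left out, and below 0 without M3 (-0.11) and W3 (-0.02). With no filter 2725 genes, 5 regulators, 8 later-step genes and 51 markers were called, against 1529, 2, 3 and 28; with DESeq2 it was 2358 genes, 2 electron partners and 6 later-step genes; the cause was not tested. With 1 library left out the ranges were 612 to 2074 genes, 0 to 1 electron partners, 1 to 4 regulators, 2 to 4 later-step genes and 21 to 38 markers. The highest of these counts of genes, P450 genes, regulators and markers were without W1. A limit of 5 CPM left 12 expressed P450 genes of 27. No paired analysis was possible because the labels share no replicate numbers between genotypes. Depth limits the genes under about 1 CPM, which rest on few counts per library.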
